A study of Mus musculus with 8 samples.

Results

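Smooth muscle contractile genes encode the force-generating machinery of the peritubular myoid cells, the flat contractile cells that wrap each seminiferous tubule. The 10 genes described here were chosen by symbol for that role: *Acta2*, *Myh11*, *Cnn1*, *Tagln*, *Des*, *Actg2*, *Mylk*, *Smtn*, *Lmod1* and *Myl9*. All 10 were found among the 40840 genes of the count tables, and all 10 passed the filter on low counts that left 19104 genes for testing. None of the 10 passed the test for a difference between *Tra2b-cPEko* and wild type testes. Their levels were slightly higher on average in *Tra2b-cPEko* testes, by 0.06 to 0.22 on the log2 scale, with overlap between the genotypes for 9 of the 10.

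In smooth muscle, calcium entering the cell activates myosin light chain kinase, which phosphorylates the regulatory light chain so that myosin filaments can pull on actin filaments. Calponin, transgelin, smoothelin and leiomodin bind or organise the actin filaments, and desmin links them to the rest of the cytoskeleton. Peritubular contraction moves immature sperm along the tubule, and transcription of many of these genes depends on serum response factor (SRF) with myocardin family coactivators bound at CArG boxes in the DNA. The same genes are expressed by vascular smooth muscle.

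RNAseq was carried out on whole testes of 8 mice on the C57BL/6J background, collected at 12 days of age (P12), with 4 independent mice of each genotype lettered A to D. Wild type mice carried 1 floxed and 1 intact allele of the *Tra2b* poison exon (*Tra2bPE* fl/+) and no Cre. *Tra2b-cPEko* mice carried 1 floxed and 1 deleted allele together with the *Vasa-Cre* transgene (*Tra2b* fl/-; *Vasa-Cre*), whose recombinase acts in germ cells from embryonic life. Myoid and other somatic cells of the *Tra2b-cPEko* testis therefore keep the poison exon on the floxed allele, and the 2 genotypes differ in the deleted allele as well as in Cre. The methods name no batch or litter, and they mention that small differences in age at P12 can vary the mix of cell types.

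The libraries held from 36757386 to 59101569 counted reads. Levels are given as CPM, the counts scaled to a common library total after normalisation, and errors are the SD over the 4 mice of a genotype. *Tra2b*, the targeted gene, was counted at 158, 166, 156 and 176 CPM in wild type mice A to D and at 200, 190, 192 and 209 CPM in *Tra2b-cPEko* mice A to D. The genotypes did not overlap, with a log2 fold change of 0.27 (SE 0.05) and an adjusted p of 0.0552 (quasi-likelihood test of edgeR, Benjamini-Hochberg method), or 0.000195 by DESeq2. Counts per gene do not show whether the poison exon is present, so they do not check the deletion itself.

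One library stood apart. *Tra2b-cPEko* mouse C held RNA of genes that mark epididymal epithelium: *Crisp1*, which encodes a secreted epididymal protein, had 107 CPM there, was at 0 in all 4 wild type mice and reached at most 0.341 CPM in the other *Tra2b-cPEko* mice. *Spink8* had 103 CPM in that mouse and at most 0.281 CPM in any other. Results for the contractile genes are therefore given with and without *Tra2b-cPEko* mouse C.

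SRF binds the CArG box, CC followed by 6 bases of A or T and then GG. Promoter windows of 300 bases (250 before and 50 after the RefSeq start of the gene, from a RefSeq table of GRCm38.p6) were listed for 7 of the 10 genes, and each matched a single place in GRCm39. The box was searched on both strands, once as spelled and once with at least 5 of the 6 central bases being A or T (CArG-like, a search that also finds every CArG box). The strict box was found in *Myl9* and in 1.63% of all 32851 windows of the table, and the CArG-like sequence in *Myl9* and *Acta2* and in 9.98% of all windows. The windows of *Des*, *Lmod1*, *Cnn1*, *Smtn* and *Mylk* held neither sequence, and *Myh11*, *Tagln* and *Actg2* were not searched. The 4 matches are shown because they are the letters by which SRF-bound promoters of this gene class are usually recognised, with the match in capitals and 10 bases on each side, 5′ to 3′ on the strand of the gene:
*Myl9*, CArG box 161 bases before the RefSeq start, GRCm39 chr2:156617213-156617242, plus strand: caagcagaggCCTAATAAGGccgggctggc
*Myl9*, CArG-like, 99 bases before the start, GRCm39 chr2:156617275-156617304, plus strand: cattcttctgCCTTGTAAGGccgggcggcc
*Acta2*, CArG-like, 84 bases before the start, GRCm39 chr19:34232838-34232867, minus strand: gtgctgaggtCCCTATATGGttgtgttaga
*Acta2*, CArG-like, 34 bases before the start, GRCm39 chr19:34232788-34232817, minus strand: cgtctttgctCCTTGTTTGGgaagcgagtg
All 4 matches lie before the RefSeq start but inside an exon that GENCODE vM39 annotates for a transcript of the same gene. A match of letters is a description and not a measured binding site.

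*Acta2* encodes smooth muscle alpha actin and is the usual marker of myoid cells (GRCm39 chr19:34217737-34232990, minus strand). Its level was 491, 495, 510 and 453 CPM in wild type mice A to D and 507, 527, 575 and 453 CPM in *Tra2b-cPEko* mice A to D, or 488 ± 24.2 against 515 ± 50.3 CPM (SD, n = 4 each). The genotypes overlapped: *Tra2b-cPEko* mouse C was the highest of the 8 mice, and mouse D of each genotype was lowest. The difference was 5.73% (95% interval -4.22 to 16.7), a log2 fold change of 0.08 (SE 0.07), with an adjusted p of 0.583 by edgeR. Each adjusted p given without another name comes from the same edgeR test, adjusted by the Benjamini-Hochberg method over all genes tested. Without *Tra2b-cPEko* mouse C the log2 fold change was 0.02. *Actg2* encodes smooth muscle gamma actin (chr6:83489887-83513551, minus strand), and was counted at 16.8, 17.4, 16.4 and 12.7 CPM in wild type and 16.8, 18.0, 24.8 and 14.1 CPM in *Tra2b-cPEko* mice. The 24.8 CPM of *Tra2b-cPEko* mouse C was well above the other 7 mice, whose values overlapped between the genotypes. The log2 fold change of 0.22 (SE 0.17, adjusted p 0.565) had the widest interval of the 10 genes, -10.8 to 53.1%, and was 0.04 without that mouse. Transcripts of *Acta2* and *Actg2* are 84% identical over 1149 bases.

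*Myh11* encodes the smooth muscle myosin heavy chain (chr16:14012399-14109236, minus strand). It was counted at 310.5, 314, 356 and 302 CPM in wild type mice A to D and at 348, 379, 405 and 349 CPM in *Tra2b-cPEko* mice A to D. Wild type mouse C lay above *Tra2b-cPEko* mice A and D, and the other 3 wild type mice lay below every *Tra2b-cPEko* mouse. The means were 321 ± 23.9 and 370 ± 27.3 CPM (SD, n = 4 each), a difference of 15.5% (95% interval 5.13 to 26.8) with a log2 fold change of 0.21 (SE 0.06). Its unadjusted p of 0.0057 by edgeR was the smallest of the 10 genes, with an adjusted p of 0.167 and a two-sided exact permutation p of 0.0857. DESeq2 gave an adjusted p of 0.0765. *Mylk* encodes myosin light chain kinase (chr16:34565580-34822790, plus strand). Its values were 343, 333, 383 and 329.5 CPM in wild type and 380, 386, 381 and 345 CPM in *Tra2b-cPEko* mice, where mouse D stood apart from the other 3. The log2 fold change was 0.10 (SE 0.06, adjusted p 0.391) and the interval ran from -1.07 to 16.9%. *Myl9* encodes the regulatory light chain that this kinase phosphorylates (chr2:156617084-156623579, plus strand). With 235.5, 271, 243.5 and 241 CPM in wild type and 249, 258, 266.5 and 260 CPM in *Tra2b-cPEko* mice, the highest single value was that of wild type mouse B. Its log2 fold change of 0.06 (SE 0.05, adjusted p 0.575) was the smallest of the 10, and its interval of -3.05 to 12.2% was the narrowest.

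*Smtn* encodes smoothelin, an actin-binding protein of contractile smooth muscle (chr11:3467520-3490612, minus strand). Its level was 58.7, 67.3, 68.9 and 67.2 CPM in wild type mice A to D and 72.7, 72.9, 74.1 and 75.9 CPM in *Tra2b-cPEko* mice A to D. Every *Tra2b-cPEko* mouse was above every wild type mouse, which held for this gene alone among the 10. Of all genes tested, 4.36% were higher in *Tra2b-cPEko* testes without overlap, so 1 of 10 is near the background share. The means of 65.5 ± 4.63 and 73.9 ± 1.47 CPM (SD, n = 4 each) differed by 12.7% (95% interval 4.09 to 22.1), a log2 fold change of 0.17 (SE 0.05). The two-sided exact permutation p was 0.0286, the smallest that 4 against 4 mice can give, and the adjusted p was 0.174 by edgeR and 0.0881 by DESeq2. Without *Tra2b-cPEko* mouse C the log2 fold change stayed at 0.17, still without overlap (5.07% of genes tested in that fit were higher without overlap), with an adjusted p of 0.368.

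*Tagln* encodes transgelin, also called SM22 alpha (chr9:45840909-45847404, minus strand). Wild type mice A to C had nearly the same level, 103, 102 and 102 CPM, and wild type mouse D had 89.9 CPM. *Tra2b-cPEko* mice A to D had 105, 119, 117 and 101 CPM, so that mouse D of this genotype fell below 3 of the wild type mice. The log2 fold change was 0.15 (SE 0.06, 11.2%, 95% interval 1.12 to 22.2), with an unadjusted p of 0.0313 and an adjusted p of 0.28 by edgeR and an exact permutation p of 0.114. Without *Tra2b-cPEko* mouse C the log2 fold change of *Tagln* was 0.12, with an interval of -0.027 to 0.268 and an unadjusted p of 0.1 by edgeR. *Cnn1* encodes calponin 1, which inhibits the myosin ATPase on actin filaments (chr9:22010512-22020926, plus strand). It was counted at 23.2, 27.4, 24.2 and 20.6 CPM in wild type and 23.4, 25.5, 30.0 and 20.7 CPM in *Tra2b-cPEko* mice, with the genotypes interleaved. Its log2 fold change of 0.07 (SE 0.12, adjusted p 0.83) turned to -0.04 without *Tra2b-cPEko* mouse C. *Lmod1* encodes leiomodin 1, which nucleates actin filaments (chr1:135252509-135295907, plus strand). Its values of 33.0, 32.2, 37.0 and 29.4 CPM in wild type and 35.2, 38.8, 34.4 and 33.9 CPM in *Tra2b-cPEko* mice overlapped through wild type mouse C, and its log2 fold change was 0.11 (SE 0.07, adjusted p 0.48), between 0.06 without wild type mouse D and 0.17 without wild type mouse C. *Des* encodes the intermediate filament protein desmin (chr1:75320511-75345223, plus strand). It had 24.3, 26.8, 20.9 and 25.6 CPM in wild type and 27.6, 24.4, 26.3 and 25.3 CPM in *Tra2b-cPEko* mice. Wild type mouse C was lowest and *Tra2b-cPEko* mouse A highest, with the other 6 mice within a narrow range, and the log2 fold change was 0.09 (SE 0.08, adjusted p 0.6), or 0.02 without wild type mouse C.

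**Figure D1:**
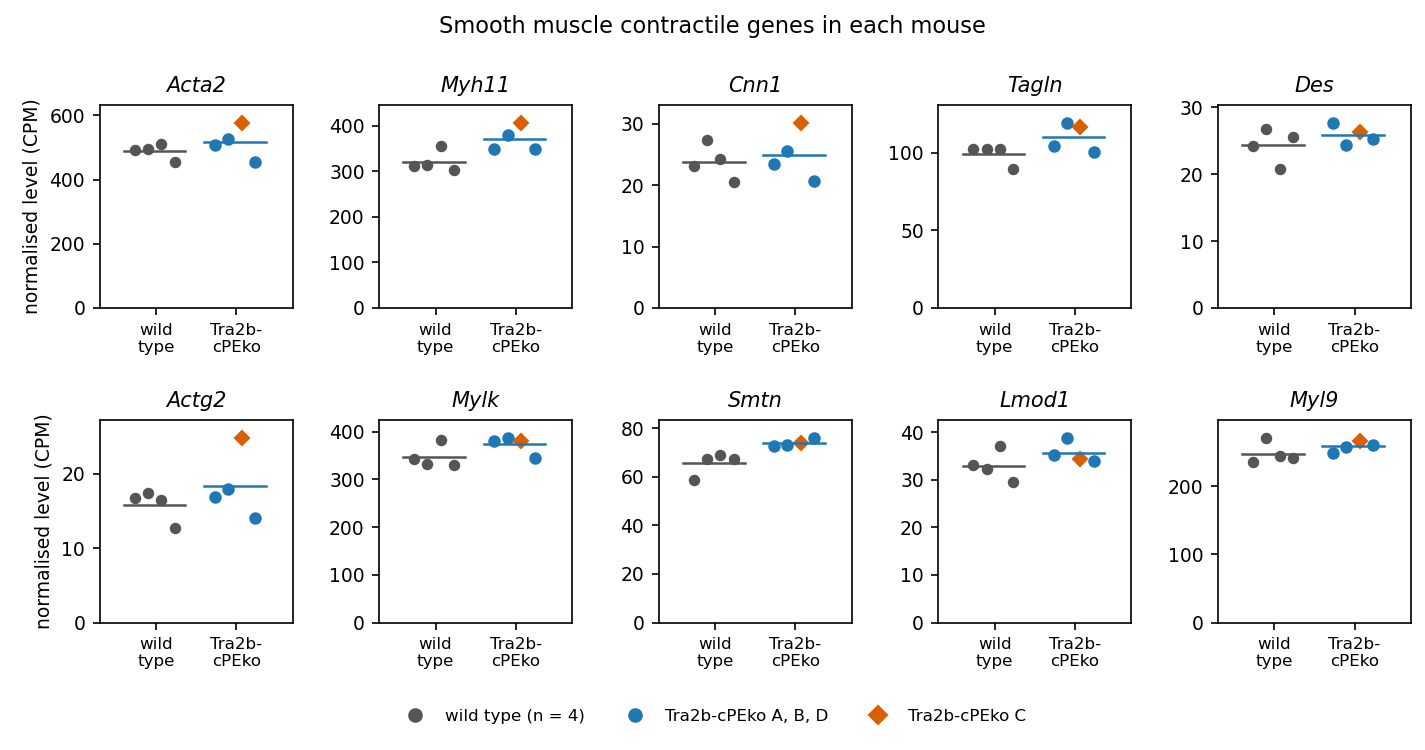
Normalised level in CPM (vertical axis, from 0) of each of the 10 contractile genes, with 1 point per mouse, wild type in grey and *Tra2b-cPEko* in blue (mouse C as an orange diamond); horizontal lines are genotype means (n = 4 each). Only *Smtn* has no overlap between genotypes, and mouse C of *Tra2b-cPEko* is the highest of the 8 mice for *Acta2*, *Myh11*, *Cnn1* and *Actg2*.

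As a group, none of the 10 genes (0 of 10) passed the adjusted threshold of 0.05 by edgeR, where 0.157% of all genes tested did (30 genes). DESeq2 called none of the 10 either, against 2.79% of the genes to which it gave an adjusted p. At an unadjusted p under 0.05, 3 of the 10 (*Myh11*, *Smtn* and *Tagln*) were higher in *Tra2b-cPEko* testes, against 8.22% of all genes tested, and none was lower, against 7.07%. All 10 log2 fold changes were above 0, between 0.06 and 0.22, against 49.7% of all genes tested and 44.3% of those whose mean reached 10 CPM, a floor set after the values were seen and passed by all 10. The median log2 fold change was 0.11 for the 10 genes and 0.00 for all genes tested, whose median size of change in either direction was 0.09. Without *Tra2b-cPEko* mouse C, 9 of the 10 were above 0 (48.8% of all genes), 2 had an unadjusted p under 0.05 (5.63% of all genes on the higher side) and the median was 0.09. The 10 genes share mice and, in part, cells, so they are not 10 independent measurements of the genotype.

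**Figure D2:**
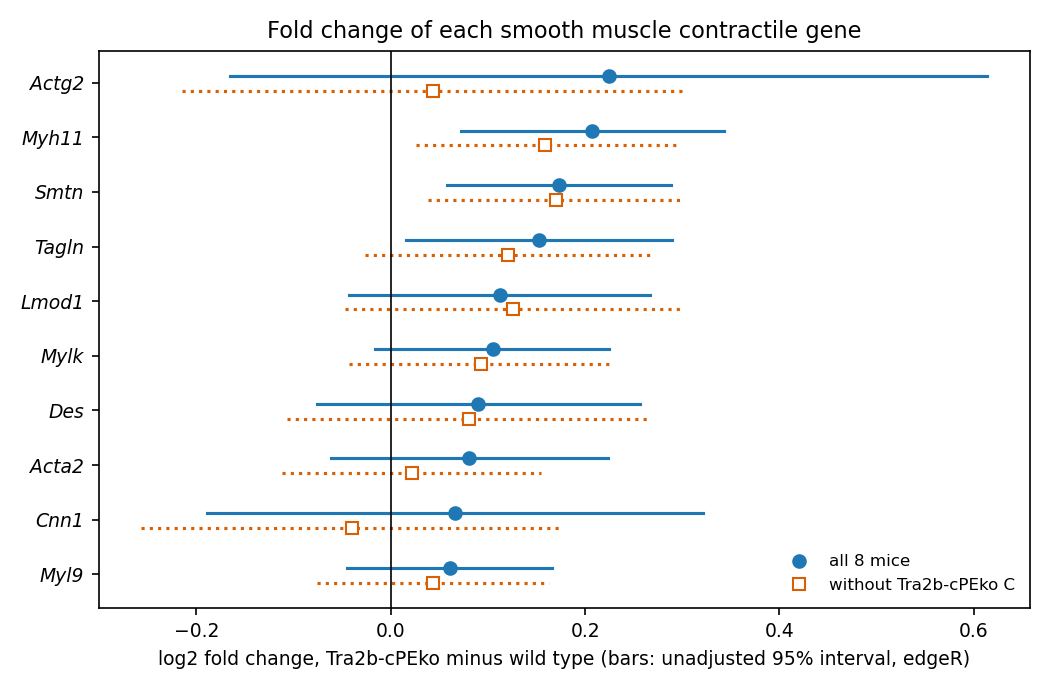
Log2 fold change of each contractile gene, *Tra2b-cPEko* minus wild type (horizontal axis), with its unadjusted 95% interval from edgeR, for all 8 mice (filled circles, solid bars) and without *Tra2b-cPEko* mouse C (open squares, dotted bars). All 10 filled circles lie above 0, the intervals of *Myh11*, *Smtn* and *Tagln* do not reach 0, and without mouse C *Cnn1* lies at -0.04 and *Actg2* at 0.04.

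Summed over the 10 genes, wild type mice A to D had 1638, 1686, 1762 and 1571 CPM, and *Tra2b-cPEko* mice A to D had 1764, 1848, 1934 and 1678 CPM. The means of 1665 ± 80.2 and 1806 ± 110 CPM (SD, n = 4 each) differed by 8.5%, and by 5.94% without *Tra2b-cPEko* mouse C. *Tra2b-cPEko* mouse D lay below wild type mice B and C, and the other 3 *Tra2b-cPEko* mice lay above all wild type mice. The genes did not order the mice in one way. *Tra2b-cPEko* mouse C was highest for 4 genes and mouse B for 3, and wild type mouse D was lowest for 6 genes. The median of the 10 genes in a mouse, as log2 against the wild type mean of each gene, ran from -0.09 to 0.07 in wild type and from 0.04 to 0.21 in *Tra2b-cPEko* mice. In whole testis, fewer myoid cells in a mouse and less RNA per myoid cell cannot be told apart.

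Per kilobase of annotated exon (GENCODE vM39, all exons of a gene merged), *Acta2* was the most abundant of the 10 genes in wild type testes at 151 ± 7.51 CPM per kb (SD, n = 4), followed by *Myl9* at 108 ± 6.81. *Tagln* at 48.6 ± 3.05 and *Myh11* at 42.2 ± 3.15 overlapped in their wild type ranges, and *Mylk* at 30.8 ± 2.18 and *Smtn* at 14.7 ± 1.04 followed below them. *Cnn1* at 8.71 ± 1.03, *Lmod1* at 8.05 ± 0.765 and *Actg2* at 7.14 ± 0.974 CPM per kb could not be ordered beyond their spread, and *Des* was lowest at 4.74 ± 0.495. The means in *Tra2b-cPEko* testes stood in the same order, from 160 for *Acta2* to 5.04 for *Des*. These levels assume that every annotated exon is used, so they understate genes with long isoforms that the testis does not make.

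**Figure D3:**
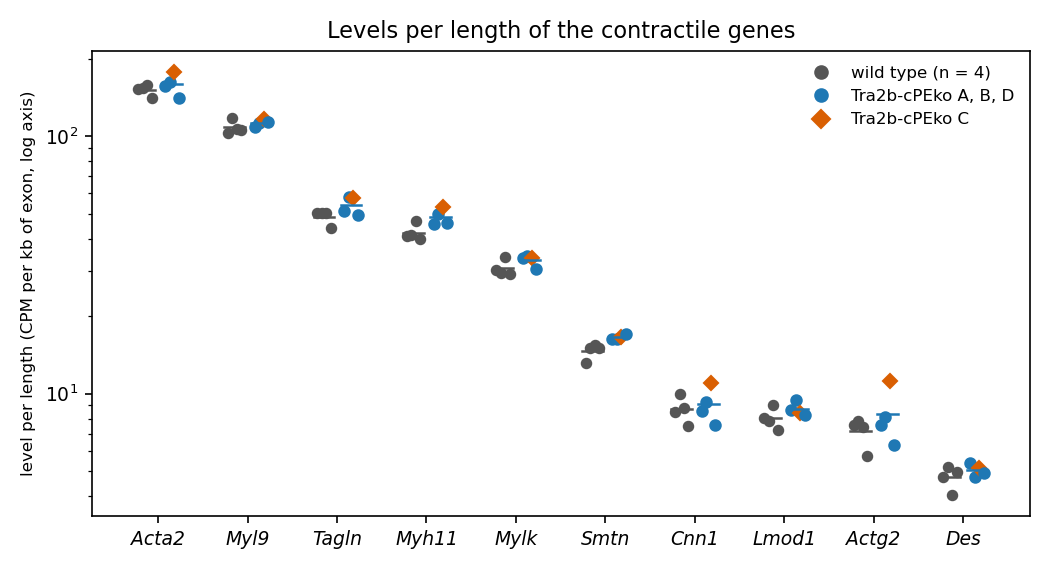
Level per length in CPM per kb of merged exon (vertical axis, log scale) of each contractile gene, ordered by the wild type mean, with 1 point per mouse and horizontal lines at the genotype means (n = 4 each). Levels run from 151 for *Acta2* to 4.74 for *Des* in wild type, and neighbouring genes such as *Tagln* and *Myh11*, or *Cnn1*, *Lmod1* and *Actg2*, overlap.

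The wider contraction pathway was read from 6 lists. Of 8 SRF and myocardin regulators, all 8 had a log2 fold change above 0. None was called by edgeR, and DESeq2 called 1. *Myocd* and *Mrtfa* were barely above 0, at 0.005 and 0.004, and *Myocd* turned to -0.07 without *Tra2b-cPEko* mouse C. *Csrp2*, whose LIM domain protein takes part in smooth muscle differentiation, had the smallest p, with 26.3, 21.8, 20.9 and 24.3 CPM in wild type and 27.7, 30.1, 25.5 and 32.1 CPM in *Tra2b-cPEko* mice. Its log2 fold change was 0.31 (SE 0.09), with an adjusted p of 0.145 by edgeR's quasi-likelihood test and 0.045 by DESeq2, and the genotypes overlapped in 1 mouse of each. *Srf* itself had a log2 fold change of 0.11 (SE 0.06) and *Csrp1*, the most abundant, of 0.09 (SE 0.06; 0.03 without *Tra2b-cPEko* mouse C) (adjusted p 0.369 and 0.5). Of 16 genes of the thin filament and dense body, 13 were above 0 and none was called. *Nexn*, encoding the actin-binding protein nexilin, had 0.21 (SE 0.08, adjusted p 0.237), *Synpo2* had 0.40 (SE 0.18, adjusted p 0.313; 0.21 without *Tra2b-cPEko* mouse C) and the abundant *Vim* had 0.02 (SE 0.05).

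Of the 20 genes of myosin phosphorylation and calcium handling, 19 were tested, 14 were above 0 and none was called. *Prkg1*, the cGMP-dependent kinase that relaxes smooth muscle, had a log2 fold change of 0.35 (SE 0.12, adjusted p 0.222 by edgeR), with its highest value of 19.6 CPM in *Tra2b-cPEko* mouse C against 11.1 to 15.3 CPM in the other 7 mice, and a log2 fold change of 0.22 without that mouse. *Ppp1r12a*, the myosin phosphatase targeting subunit, had 0.11 (SE 0.05) and *Atp2a2*, the calcium pump of the sarcoplasmic reticulum, -0.03 (SE 0.04). *Pln* had at most 8 reads in a library and was not tested.

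Among 12 receptors that drive contraction, 11 were tested, 10 were above 0 and none was called by edgeR. *Avpr1a*, the vasopressin receptor, had 6.38, 4.61, 5.24 and 5.98 CPM in wild type and 7.34, 7.22, 8.3 and 8.42 CPM in *Tra2b-cPEko* mice, without overlap. Its log2 fold change was 0.49 (SE 0.11), with an adjusted p of 0.099 by edgeR's quasi-likelihood test and 0.00714 by DESeq2. *Agtr1a*, an angiotensin receptor, had 0.29 (SE 0.16), and *Ednra*, the endothelin receptor and the most abundant of the list, had -0.13 (SE 0.10). The median log2 fold change of the receptors was 0.29, and 0.12 over the 6 of them with a mean count of at least 50, against 0.11 for the contractile genes by either filter. Their sum, mostly *Ednra*, differed by 0.824% between genotypes (-3.5 to 4.97% with 1 mouse left out), against 8.5%.

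Paralogues outside smooth muscle were a comparison for the contractile genes. Of 13 non-muscle and striated actins, myosins and their partners, 10 were tested, 6 were above 0 and none was called by edgeR. DESeq2 called 1, and edgeR called 1 of the 13 with no filter on low counts. *Actb*, the non-muscle beta actin, had a log2 fold change of 0.00 (SE 0.05), and *Actg1* had 0.09 (SE 0.05), close to the 0.08 of *Acta2*. *Mylk4*, a little-expressed kinase paralogue of *Mylk*, had 0.678 to 1.04 CPM in wild type and 1.03 to 1.8 CPM in *Tra2b-cPEko* mice, a log2 fold change of 0.92 (SE 0.21) with an adjusted p of 0.099 by edgeR and 0.0263 by DESeq2. Of 10 peritubular cell genes outside contraction, 7 were above 0 and none was called. *Itga1* had a log2 fold change of 0.41 (SE 0.18, adjusted p 0.334) and *Lama2*, a laminin of the tubule wall, 0.22 (SE 0.16). The median log2 fold change of these 10 genes was 0.09, against 0.11 for the contractile genes.

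Markers of other cell types that whole testis, or tissue around it, could hold were summed in each mouse. Vascular smooth muscle and pericyte markers (10 of 10 tested, 8 above 0, none called by edgeR and 1 by DESeq2, *Mcam* the most abundant) differed by 4.27% in sum, with 269, 270, 299 and 286.5 CPM in wild type and 272, 300.4, 310 and 290 CPM in *Tra2b-cPEko* mice, so the genotypes overlapped. Without *Tra2b-cPEko* mouse C the difference was 2.3%. In that list *Abcc9* had a log2 fold change of 0.36 (SE 0.10, adjusted p 0.134 by edgeR and 0.0306 by DESeq2), *Kcnj8* 0.29 (SE 0.12) and *Mcam* 0.00. Endothelial cell markers differed by 3.1% (8 of 10 above 0; *Cldn5*, *Pecam1* and *Cdh5* at 0.18, 0.13 and 0.05) and markers of interstitial stroma by 2.42% (6 of 8 above 0; *Lum*, *Dcn* and *Col1a2* at 0.27, 0.10 and 0.01), with none called. Without *Tra2b-cPEko* mouse C these differences became 1.54% and 0.00613%, and *Pecam1*, *Dcn* and *Col1a2* were at 0.04, 0.06 and -0.02. Macrophage markers were above 0 for 10 of 10 genes and 21.6% higher in sum, with none called by edgeR and 2 by DESeq2 (*Cx3cr1* at 0.41 and *Csf1r* at 0.29). At an unadjusted p under 0.05 by edgeR, 6 of the 10 were higher, against 3 of the 10 contractile genes and 8.22% of all genes tested. *Mrc1*, the most abundant, was at 0.32. DESeq2 called 2.79% of all genes to which it gave an adjusted p. The macrophage sums overlapped, with 184.3 CPM in *Tra2b-cPEko* mouse D and 184.5 CPM in wild type mouse C. Leydig cell markers summed to 462, 440, 405 and 480 CPM in wild type and to 445, 669, 446.5 and 533 CPM in *Tra2b-cPEko* mice, with overlap. Their difference of 17.1% was 6.24% without *Tra2b-cPEko* mouse B. Of the 8, 6 were above 0, none was called by edgeR and 2 were by DESeq2 (*Lhcgr* at 0.46 and *Hsd3b6* at 1.02), while *Hsd17b3* was at -0.54 and *Hsd3b1*, the most abundant, at -0.09. Without *Tra2b-cPEko* mouse C the macrophage sum was 17.4% higher, beside 5.94% for the contractile genes. With any 1 mouse left out, the difference in sum ranged over 2.3 to 6.75% for the vascular, 0.405 to 5.35% for the endothelial and 0.00613 to 6.09% for the stromal list.

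Sertoli cell markers differed by -4.34% in sum, or -2.19% without *Tra2b-cPEko* mouse C, with 2 of 8 above 0 and none called. *Amh* was at -0.37 (-0.24 without that mouse), *Fshr* at 0.12 and *Inha* at -0.03. Germ cell markers differed by -8.2%, with 1 of 10 above 0 and none called (*Ddx4* at -0.17 and *Dazl*, the most abundant, at -0.09). The germ cell sums were 2669 and 2490 CPM in wild type mice A and B and between 2147 and 2184 CPM in the other 6 mice. Red blood cell genes were also highest in wild type mice A and B, at 97.7 and 138 CPM against 25.1 to 82.4 CPM in the others (none of 5 above 0; *Hbb-bs*, *Hbb-bt* and *Alas2* at -0.60, -0.59 and -0.46). Their difference in sum of -32.3% was -6.71% without wild type mouse B, and that of the germ cell markers was -4.09% without wild type mouse A. Skeletal muscle genes summed to 45.9, 47.1, 40.4 and 50.6 CPM in wild type and 49.9, 50.2, 48.7 and 47.3 CPM in *Tra2b-cPEko* mice, a difference of 6.6% that was 2.43% without wild type mouse C. Of 9 tested, 6 were above 0 and none was called by edgeR, while DESeq2 called *Ttn* (*Ttn* at 0.32, *Myh3* at -0.21 and *Actn3*, the most abundant, at 0.03). Mesothelium markers differed by 12.3% in sum, or 5.94% without *Tra2b-cPEko* mouse C, whose sum of 59.7 CPM was the highest. All 7 of these markers had an unadjusted p under 0.05 by edgeR, 6 above 0 and 1 below. Of all genes tested, 8.22% had such a p on the higher side and 7.07% on the lower. Without *Tra2b-cPEko* mouse C each of the 7 kept its direction, and their adjusted p by edgeR ran from 0.108 to 0.507. DESeq2 was run with all 8 mice only. DESeq2 called 4 of the 7 (*Lrrn4*, *Upk3b*, *Upk1b* and *Gpm6a*, all higher), against 2.79% of the genes to which it gave an adjusted p. edgeR called 1 of the 7, against 0.157% of all genes tested. This was *Lrrn4*, at 3.67, 3.59, 3.81 and 3.95 CPM in wild type and 7.08, 4.77, 7.89 and 6.92 CPM in *Tra2b-cPEko* mice (log2 fold change 0.83, SE 0.14, adjusted p 0.0424 by edgeR). *Lrrn4* was not called by limma-voom, with a mean count of at least 50, without robust estimation, or without any 1 of wild type mice A, B and D and *Tra2b-cPEko* mice A, C and D. *Bnc1*, the most abundant of that list and the only one below 0, had -0.16 (SE 0.05). It made up most of the sum, with a mean of 38.7 of 45.5 CPM in wild type and 34.55 of 51.08 CPM in *Tra2b-cPEko* mice. The difference in sum therefore says little of the other markers in the list.

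The epididymal epithelium list, of which 5 of 10 genes were tested, summed to between 50.8 and 63.9 CPM in 7 mice and to 413 CPM in *Tra2b-cPEko* mouse C. *Epcam*, the most abundant of the list and also expressed by spermatogonia, made up most of the sum in the 7 mice, *Krt8* and *Cdh16* had 14.9 and 55.2 CPM in mouse C and at most 0.953 CPM elsewhere, and *Lcn8* and *Lcn9* stayed at 7 reads or fewer in every library. Adipocyte genes (6, of which 2 were tested) summed to 34.2 CPM in the same mouse and to between 8.82 and 13 CPM in the others, with *Car3* at 17.9 CPM there. *Plin4* had a log2 fold change of 0.92 (0.51 without mouse C) and *Plin1*, the most abundant, of 0.00. The contractile genes were highest in sum in *Tra2b-cPEko* mouse C as well, at 1934 CPM, and the mean of the other 3 *Tra2b-cPEko* mice was 1763 ± 85 CPM (SD, n = 3). The part that tissue around the testis, or a different share of any cell type, has in the counts of the contractile genes was not tested.

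**Figure D4:**
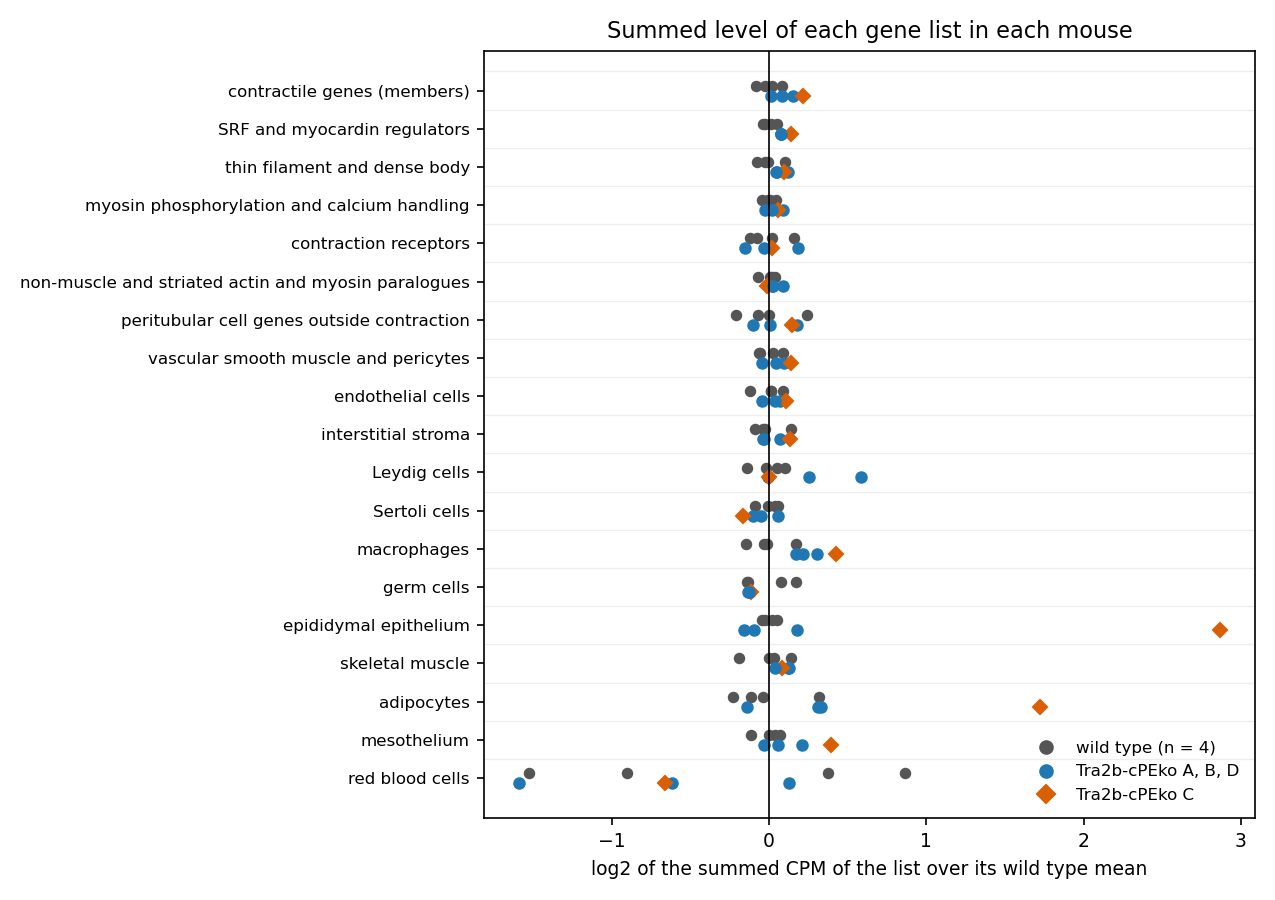
Log2 of the summed CPM of each gene list over its wild type mean (horizontal axis), with 1 point per mouse, wild type in grey and *Tra2b-cPEko* in blue (mouse C as an orange diamond). The 10 contractile genes sum to 1571 to 1762 CPM in wild type and 1678 to 1934 CPM in *Tra2b-cPEko* mice, and the sum of 413 CPM for epididymal epithelium sets mouse C far to the right of all other points.

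The genes whose pattern over the 8 mice was nearest to the mean standardised pattern of the 10 contractile genes were sought among 15467 other genes averaging 1 CPM or more. By root-mean-square distance on standardised log2 CPM, the nearest 10 were *C1qb* (distance 0.143), *Ctsk* (0.146), *Rab40b* (0.255), *Spin2c* (0.272), *Laptm5* (0.291), *Gpr173* (0.292), *Igdcc3* (0.294), *Rubcn* (0.298), *Tmem176b* (0.302) and *Lhcgr* (0.309). The distances of the contractile genes themselves from their own mean pattern ran from 0.366 for *Tagln* to 1.2 for *Des*. The nearest 10 were picked for their small distances, so the contractile genes are not compared with them. With 8 mice and this many candidates, some genes come near any pattern, and these distances are a description only.

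Limits of counting bear on some of the genes. *Acta2*, *Cnn1*, *Tagln*, *Des*, *Mylk*, *Smtn*, *Lmod1* and *Myl9* overlap at least 1 gene on the opposite strand in GENCODE vM39, and *Myh11* and *Actg2* overlap none. Whether the counting used strand is not given in the sources used here, so reads in stretches that 2 such genes share may not have been told apart. The longest shared stretch was 961 bases for *Cnn1* with *Elof1*, 404 for *Tagln* with *Gm48529*, 323 for *Smtn* with *Gm11946* and 190 for *Mylk* with *Gm21691*. *Des* shares a near-identical stretch with *Gm15179*, which overlaps it on the opposite strand, and no other gene was near-identical to *Des*. *Acta2* also shares a highly similar stretch with its opposite-strand partner *Stambpl1*.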

How the data were processed

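Stranded mRNA libraries of whole P12 testes were sequenced in pairs of reads, and the authors deposited raw counts per gene for each mouse, with 5 summary lines that were left out. Per the labels, the submitters' processing notes name HISAT2 2.2.1, SAMtools 1.7.1, HTSeq 2.0.2 and deepTools 3.5.1 on GRCm39, and the methods name Salmon. Between 66.4% and 69% of reads fell on genes.

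Counts were tested in R 4.3.3 with edgeR 4.0.16 (filterByExpr with a least count of 10 and least total of 15, TMM factors, robust quasi-likelihood F-test), with Benjamini-Hochberg adjustment over 19104 genes and a threshold of 0.05. Exact permutation tests, two-sided, compared log2 CPM over 70 arrangements of the mice. DESeq2 1.42.0, limma-voom 3.58.1, other factors, filters, the replicate block and each mouse left out were alternatives. The procedure was tested on simulated data. Positions came from GENCODE vM39, and copies were searched with BLAST+ 2.17.0. Figures were drawn with Python 3.11.15 and matplotlib 3.10.9.

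The 10 genes, the 18 other lists (181 genes), the tests and the alternatives were all chosen with earlier results of these data known. All 10 genes are named. From each other list the genes called are named, or the 2 with the smallest p, with the most abundant gene. The 10 genes nearest in pattern and *Tra2b* are named as well. The result of 1 single gene that this rule names is not reported here. Outside this rule, *Crisp1*, *Spink8*, *Car3*, *Pln*, *Lcn8*, *Lcn9*, *Upk3b*, *Upk1b*, *Gpm6a*, *Hsd17b3*, *Myocd*, *Mrtfa*, *Elof1*, *Gm15179* and the other overlapping genes were named after their values or annotation were seen.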

Additional observations from a re-analysis of the deposited data

Results flagged for a closer look

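Of 60 genotype groups of 4 mice, 5 held a mouse whose distance to the nearest of the other 3 took up so much of the group's range that it passed Dixon's test for an outlier, where chance flags about 1 in 20 groups, or 3 of 60. Among the contractile genes, *Tagln* in wild type mouse D had 89.9 CPM, below the 102 to 103 CPM of the other wild type mice, and *Mylk* in *Tra2b-cPEko* mouse D had 345 CPM, below the 380 to 386 CPM of the others. The other 3 were sums in *Tra2b-cPEko* mouse C, namely SRF and myocardin regulators at 546 CPM (others 523 to 524), epididymal epithelium at 413 CPM (others 50.8 to 63.9) and adipocytes at 34.2 CPM (others 9.37 to 13).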

How the results depend on the processing

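None of the 10 contractile genes was called under any of the 18 alternatives, of which 1 (without wild type mice A and B and *Tra2b-cPEko* mouse C together) was added after these values were seen. Their median log2 fold change lay between 0.09 and 0.16. The lowest adjusted p of *Myh11* was 0.0548 (edgeR without wild type mouse C) and that of *Smtn* 0.0881 (DESeq2). The log2 fold change of *Cnn1* turned to 0.00 (-0.002) without wild type mouse D and to -0.04 without *Tra2b-cPEko* mouse C, within a range of -0.04 to 0.14 over the fits that left out a mouse (0.143 without *Tra2b-cPEko* mouse D), and no other member's direction turned. With a mouse left out, the other log2 fold changes ranged over 0.02 to 0.14 for *Acta2* and *Des*, 0.16 to 0.26 for *Myh11*, 0.10 to 0.19 for *Tagln*, 0.04 to 0.33 for *Actg2*, 0.08 to 0.15 for *Mylk*, 0.12 to 0.20 for *Smtn*, 0.06 to 0.17 for *Lmod1* and 0.04 to 0.11 for *Myl9*. The number of members higher without overlap was 1 to 4 with a mouse left out, against 5.07 to 8.47% of all genes tested in those fits. It was 4 without wild type mouse C (8.47% of all genes), 2 without wild type mouse B (6.04%) or *Tra2b-cPEko* mouse D (5.97%), and 2 without the 3 libraries together (12.8%).

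The number of genes called over the whole table, 30, was 123 with no filter on low counts, 14 with a mean count of at least 50, 58 with upper-quartile factors, 507 by DESeq2, 11 by limma-voom, 12 without robust estimation, 3 to 84 with a mouse left out (3 without *Tra2b-cPEko* D, 84 without wild type C) and 1 without the 3 libraries together. The share of calls that were higher was 83.3%, against 59.4% by DESeq2 and 91.4% with upper-quartile factors; the cause was not tested.

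For mice that share a replicate letter, the deviations of log2 CPM from the genotype mean were correlated over genes. These correlations were 0.02, -0.194, -0.028 and 0.219 for A to D, and only D correlated best with its own letter. The labels do not say whether the letters pair the mice. With the letter as a replicate block 67 genes were called, against 30 without it, and none of the contractile genes.

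Depth was not the main limit for these genes, which had at least 517 reads in every library. The intervals rest on the spread between mice as edgeR estimates it, which is moderated over all genes tested. Those of 7 of the 10 genes include 0.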
